A study of Mus musculus with 8 samples.

Results

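The genes described here were 6 transcription factors of the trophectoderm and its descendants (Cdx2, Elf5, Tfap2c, Gata2, Gata3 and Hand1) and 4 keratins of simple epithelia (Krt7, Krt8, Krt18 and Krt19), in mouse embryonic stem cells (ESCs) that were kept in 4 self-renewal conditions. They were taken by gene symbol, and all 10 were found among the 38991 genes with a deposited value. The cells were Rex1GFPd2 (RGd2) ESCs of strain 129, which carry a destabilised GFP at the Rex1 (Zfp42) locus. They had been maintained in 2i for 6 passages and then reached passage 11 over another 5 passages in N2B27, a serum-free medium, supplied with 2 or 3 of the components LIF, CH (CHIR99021, a GSK3 inhibitor, 3 µM) and PD (PD0325901, a MEK inhibitor, 1 µM). The 2i+LIF cultures received all the components, 2i cultures CH and PD without LIF, LIF+PD cultures LIF and PD without CH, and CH+LIF cultures LIF and CH without PD. Each condition had 2 cultures, and 2i+LIF served as the reference because each of the other conditions lacks exactly 1 component of it. All cells came from the 1 reporter line, and all had been adapted to 2i beforehand.

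The trophectoderm is the outer epithelium of the blastocyst and gives rise to the trophoblast of the placenta, whereas ESCs derive from the inner cell mass. Tead4 acts upstream in the early embryo, Cdx2 is needed to keep the trophectoderm lineage apart from the inner cell mass, and Gata3 and Tfap2c act alongside Cdx2. Elf5 reinforces the identity of trophoblast stem cells, and Gata2 and Hand1 act later, among other places in giant cells. Krt8 (a type II keratin) pairs with Krt18 (a type I keratin) to form the filaments of simple epithelia, and Krt7 and Krt19 are further keratins of such epithelia. Several of these genes have other roles: Tfap2c is also a factor of the germline and of pluripotent cells, and Cdx2 is also a target of Wnt signalling in the posterior embryo.

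Expression was measured by RNA-seq and given as FPKM, fragments scaled to transcript length and library size, so levels of different genes can be set side by side per length. In each culture between 11659 and 12109 genes reached an FPKM of 1. The number of reads per culture is unknown, and the estimated relative depth ranged from 0.499 (replicate 1 of 2i, the shallowest) to 1.18 (replicate 2 of CH+LIF) of that in replicate 1 of 2i+LIF. The cultures expressed the ESC markers Pou5f1, Nanog, Sox2, Zfp42, Esrrb and Dppa5a at a summed FPKM of 4004 to 5684. Summed FPKM over 8 trophoblast markers was 2.31 to 2.69 in 2i+LIF, 4.95 to 7.03 in LIF+PD, 9.23 to 9.63 in 2i and 11.2 to 11.8 in CH+LIF, with Prl3d1, Prl2c2 and Tpbpa at 0 in all 8 cultures and most of the sum from Eomes and Ascl2. Germ cell markers summed to 14.6 to 77.1. Mesoderm markers, mostly T, summed to 5.22 to 6.18 in 2i+LIF, 9.38 to 16.3 in 2i and 19.6 to 37.4 in CH+LIF. In LIF+PD they summed to 1.78 to 1.99, mostly Kdr (1.41 and 1.38 FPKM), with T at 0.161 and 0.210. The part of these other lists in the results was not tested. In RNA from whole cultures, a smaller number of cells expressing a gene and less of its RNA per cell cannot be told apart.

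Promoter sequences from RefSeq (GRCm38.p6) are shown for Cdx2, the defining factor of the set, and for the neighbouring keratins Krt8 and Krt18, whose levels were ordered differently. They hold only bases upstream of every annotated start of the gene and run 5′ to 3′ on its strand. Capitals mark matches, on either strand, to any of 6 motifs: GCCNNNGGC for AP-2 factors, AGATAA for factors of the GATA family, TTTATNG for CDX factors, GGAATG for TEAD factors, TGANTCA for AP-1 and CTTTGA for TCF/LEF factors. The Cdx2 stretch, chr5:147307271-147307499 on the minus strand, held no match. The Krt8 stretch, chr15:102004483-102004592 on the minus strand, held 1 GATA match, and the Krt18 stretch, chr15:102027966-102028179 on the plus strand, held 1 AP-2 match.
Cdx2: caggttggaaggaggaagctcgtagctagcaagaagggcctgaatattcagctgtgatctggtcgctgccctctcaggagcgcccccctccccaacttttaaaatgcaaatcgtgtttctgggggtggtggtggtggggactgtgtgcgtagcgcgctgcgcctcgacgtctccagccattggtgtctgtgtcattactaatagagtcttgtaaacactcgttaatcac
Krt8: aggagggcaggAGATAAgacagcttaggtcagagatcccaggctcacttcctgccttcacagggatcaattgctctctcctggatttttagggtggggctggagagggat
Krt18: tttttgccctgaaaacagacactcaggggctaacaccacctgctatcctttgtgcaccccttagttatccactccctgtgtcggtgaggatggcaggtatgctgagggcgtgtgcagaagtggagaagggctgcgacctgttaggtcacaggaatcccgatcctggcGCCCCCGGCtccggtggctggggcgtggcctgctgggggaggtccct
Promoters of 300 bases were found for 7 of the 10 genes, and those of Tfap2c, Hand1 and Krt19 are only named. Among all 32851 RefSeq promoters of this length, 16.6% held the AP-2 motif, 11.2% the GATA motif, 10.9% the CDX motif, 14.7% the TEAD motif, 7.81% the AP-1 motif and 16.0% the TCF/LEF motif, so that a match is common. The stretches printed are shorter than 300 bases, and these shares do not apply to them. In the 9 full windows of the 7 genes, AP-2 matches numbered 3 in Gata3, 2 in Krt7 and 1 each in Cdx2, Krt18 and the second of the 2 promoters of Gata2, which also held 1 TEAD match. Krt8 held 1 GATA match, and the 2 promoters of Elf5 held 1 TEAD match and 1 TCF/LEF match. The AP-2 match of Cdx2 lies outside the stretch printed. These matches describe letters in a window and say nothing of binding.

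Of the 10 genes, 7 reached an FPKM of 1 in at least 2 cultures and were tested: Cdx2, Tfap2c, Gata2, Gata3, Krt8, Krt18 and Krt19. Elf5, Hand1 and Krt7 did not, and are given by their values. Differences are on the log2(FPKM + 1) scale with their standard error (SE) and a Benjamini-Hochberg adjusted p from a limma fit across all 12927 genes tested, and a gene is said to have risen or fallen where that p was below 0.05. All p-values measure the spread between 2 cultures per condition, which the labels do not describe as separate derivations and which may be technical. The 3 comparisons with 2i+LIF share its 2 cultures, so they are not independent of each other.

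Cdx2 (ENSMUSG00000029646, chr5:147300805-147307270, minus strand, mm10) was expressed where both inhibitors were present and was low where 1 of them was left out. Its FPKM was 10.2 and 7.91 in the 2 cultures of 2i+LIF and 12.2 and 10.6 in 2i. In CH+LIF it was 1.90 and 0.733, and in LIF+PD 0.0433 and 0.0960. The 4 cultures with CH and PD together were above every culture lacking either, and LIF+PD was below CH+LIF in every culture. Against 2i+LIF, Cdx2 fell by 3.23 on the log2 scale without CH (SE 0.25, limma adjusted p = 0.000336) and by 2.16 without PD (SE 0.25, limma adjusted p = 0.00193). Without LIF the difference was 0.30 (SE 0.25, limma adjusted p = 0.443). The mean in CH+LIF, 1.31 ± 0.823 (SD, n = 2), was 6.90-fold below that in 2i+LIF, 9.07 ± 1.64 (SD, n = 2). In LIF+PD the mean was 0.0696 ± 0.0373 (SD, n = 2), and the bounds deposited with the 2 values ran from 0 to 0.118 and from 0 to 0.217, so the level there is not separated from 0. CH+LIF was above LIF+PD by 1.07 (SE 0.25, limma adjusted p = 0.0187). This call was lost without replicate 1 of CH+LIF (0.70) and without either culture of LIF+PD. It was also lost with a pseudocount of 5 and with no filter on low values. Against 2i, Cdx2 fell by 3.53 in LIF+PD (limma adjusted p = 0.000179) and by 2.46 in CH+LIF (limma adjusted p = 0.00102). These 4 declines passed under all 16 alternatives.

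Tfap2c (ENSMUSG00000028640, chr2:172549593-172558622, plus strand), an AP-2 family factor, was the most abundant of the 6 factors in every culture and was highest without CH, where Cdx2 was lowest. Its FPKM was 45.4 and 52.8 in LIF+PD, 20.97 and 27.2 in 2i+LIF, 30.0 and 25.5 in 2i, and 15.6 and 16.8 in CH+LIF. The LIF+PD cultures were above, and the CH+LIF cultures below, all others. Against 2i+LIF, Tfap2c rose by 1.00 in LIF+PD (SE 0.15, limma adjusted p = 0.00377), from 24.1 ± 4.42 to 49.1 ± 5.20 FPKM (SD, n = 2). In CH+LIF it fell by 0.53 (SE 0.15, limma adjusted p = 0.039), to 16.2 ± 0.850 FPKM (SD, n = 2), and between CH+LIF and LIF+PD the difference was -1.54, CH+LIF being lower (SE 0.15, limma adjusted p = 0.000518). Without LIF the cultures overlapped (difference 0.20, SE 0.15, limma adjusted p = 0.387). The decline in CH+LIF was the less stable of these calls: it was lost when replicate 2 of 2i+LIF or replicate 1 or 2 of CH+LIF was left out. It was also lost when every culture was scaled to the same sum (difference -0.34, limma adjusted p = 0.16). With no filter on low values, or without the mean-variance trend, it was lost too. Tfap2c was higher in LIF+PD than in 2i (0.80, limma adjusted p = 0.00829), lost without replicate 2 of LIF+PD (0.70). It was lower in CH+LIF than in 2i (-0.73, limma adjusted p = 0.0139), lost without replicate 1 of 2i or replicate 1 of CH+LIF. Both calls were also lost with no filter on low values.

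Gata3 (ENSMUSG00000015619, chr2:9857078-9890034, minus strand), a zinc finger factor that promotes trophoblast fate, was highest in LIF+PD as well. Its FPKM was 14.4 and 18.4 in LIF+PD, 1.70 and 6.83 in 2i, 2.10 and 0.462 in 2i+LIF, and 0.0254 and 0.426 in CH+LIF. The value of 18.4, replicate 2 of LIF+PD, lies above its own deposited upper bound of 18.2. LIF+PD did not overlap with any other condition, whereas 2i and 2i+LIF overlapped and their replicates lay far apart. The mean rose from 1.28 ± 1.16 FPKM in 2i+LIF to 16.4 ± 2.86 in LIF+PD (SD, n = 2), a log2 difference of 3.02 (SE 0.54, limma adjusted p = 0.00758). The difference was 1.11 without LIF (SE 0.54, limma adjusted p = 0.198) and -0.82 without PD (SE 0.54, limma adjusted p = 0.307). CH+LIF was also below LIF+PD, with a difference of -3.84 (SE 0.54, limma adjusted p = 0.00226), which held under all 16 alternatives. The increase over 2i+LIF was lost only with no filter on low values (adjusted p = 0.0912). The outcome without LIF depended on 1 culture, since without replicate 1 of 2i the difference from 2i+LIF was 1.88 and passed (adjusted p = 0.0472). Against 2i, Gata3 rose in LIF+PD (1.91, SE 0.54, limma adjusted p = 0.039) and fell in CH+LIF (-1.93, SE 0.54, limma adjusted p = 0.0399). The first of these calls was lost without replicate 1 of 2i (1.15), either culture of LIF+PD or either culture of CH+LIF. It was also lost with a pseudocount of 0.1, with no filter on low values and with a mean FPKM of at least 5. The second was lost without replicate 2 of 2i (-1.16), either culture of CH+LIF or either culture of LIF+PD. It was also lost with a pseudocount of 5 (-0.77, limma adjusted p = 0.0736) and with no filter on low values. Without the mean-variance trend, or with the replicate number as a block, it was lost too. Antisense genes overlap Gata3 and Krt7 in the annotation, and the methods describe strand-specific counting of reads for the authors' counts, while whether the FPKM values used strand is not given in the sources used here. If strand was not used, reads of the overlaps cannot be told apart.

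Gata2 (ENSMUSG00000015053, chr6:88193891-88207030, plus strand), which acts with Gata3 in giant cells and is also a factor of blood progenitors, was ordered differently from Gata3. Its FPKM was 2.55 and 4.24 in 2i+LIF, 1.58 and 1.79 in 2i, 1.91 and 1.85 in LIF+PD, and 0.548 and 0.596 in CH+LIF. The CH+LIF cultures were below all others and the 2i+LIF cultures above all others. In CH+LIF, Gata2 fell by 1.46 from 2i+LIF (SE 0.20, limma adjusted p = 0.00366), from 3.40 ± 1.20 to 0.572 ± 0.0345 FPKM (SD, n = 2), and this call held under every alternative in which Gata2 was tested. The differences of 2i (-0.69, SE 0.20, limma adjusted p = 0.0589) and LIF+PD (-0.58, SE 0.20, limma adjusted p = 0.0783) missed the threshold. Both passed it when replicate 1 of 2i+LIF was left out (-0.97 and -0.86). That of 2i also passed without the mean-variance trend (limma adjusted p = 0.0458). Gata2 was also lower in CH+LIF than in 2i (-0.77, limma adjusted p = 0.0341) and LIF+PD (-0.87, limma adjusted p = 0.0179). Each of these 2 calls was lost when any 1 culture of the pair was left out, and with no filter on low values. The call against 2i was also lost without either culture of LIF+PD, with a pseudocount of 5 and with scaling to the same sum.

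Elf5 and Hand1 were close to 0. Elf5 (ENSMUSG00000027186, chr2:103411688-103450989, plus strand) had an FPKM of 0.397 and 0.182 in 2i+LIF, 0 and 0.224 in 2i, 0 and 0 in CH+LIF, and 0.433 and 0 in LIF+PD, which follows no condition. Hand1 (ENSMUSG00000037335, chr11:57828705-57832818, minus strand), a basic helix-loop-helix factor of giant cells, was listed at 0 in all 4 cultures of 2i+LIF and CH+LIF, at 0.112 and 0.173 in 2i, and at 0.278 and 0.555 in LIF+PD. With the filter on low values removed, no comparison of Elf5, Hand1 or Krt7 passed the test, and the smallest limma adjusted p of Hand1 against 2i+LIF was 0.0713, in LIF+PD.

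**Figure D1:**
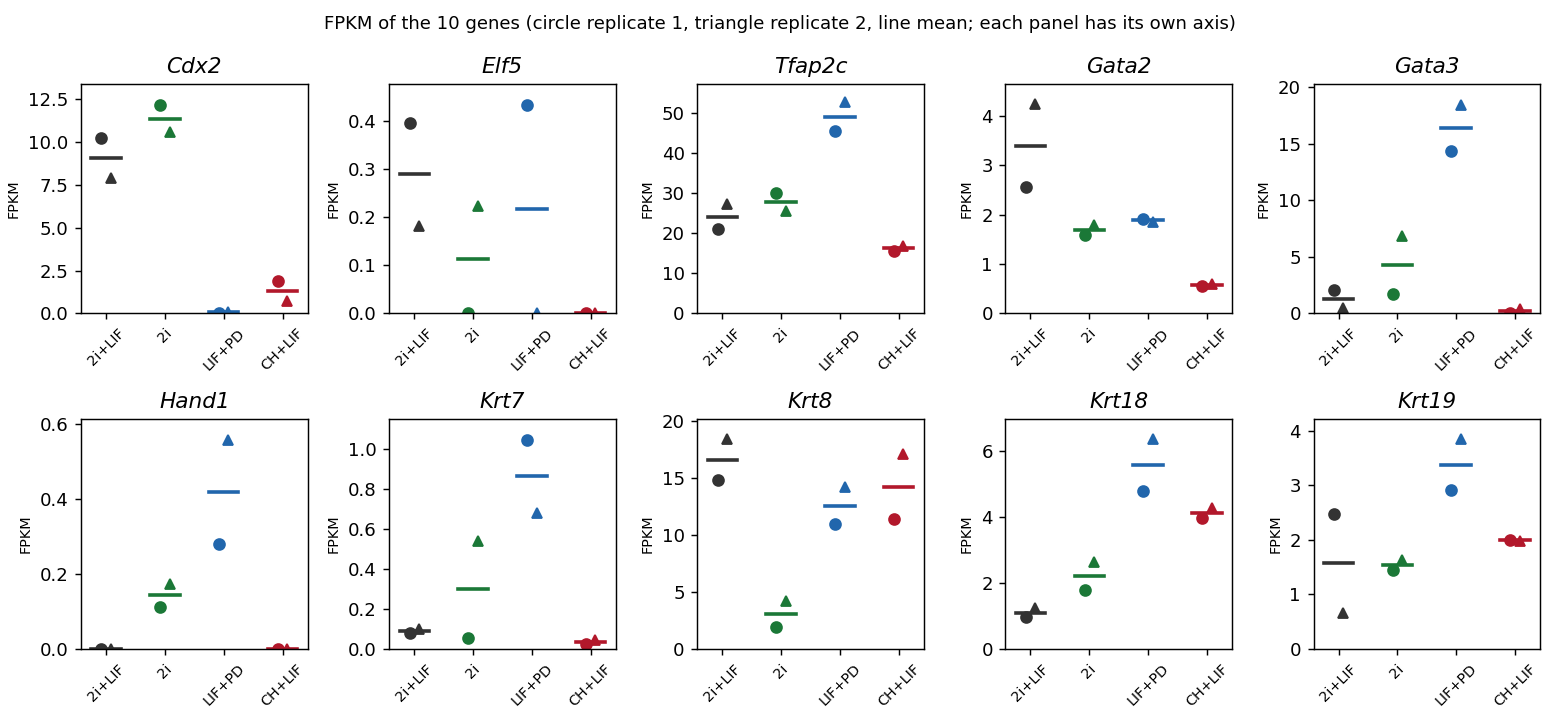
FPKM (vertical axis, linear from 0, a separate scale in each panel) of the 10 genes in the 4 conditions, with a circle for replicate 1, a triangle for replicate 2 and a line at the mean. Cdx2 lies near 10 FPKM in 2i+LIF and 2i and at or below 1.90 FPKM elsewhere, Tfap2c and Gata3 are highest in LIF+PD, and Krt8 is lowest in 2i.

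The keratins were ordered differently. Krt8 (ENSMUSG00000049382, chr15:101996711-102004342, minus strand) was lowest without LIF. Its FPKM was 14.8 and 18.4 in 2i+LIF, 11.3 and 17.1 in CH+LIF, and 10.9 and 14.2 in LIF+PD, but 1.90 and 4.21 in 2i. Both cultures without LIF were below each of the 6 cultures with LIF. Against 2i+LIF, Krt8 fell by 2.17 in 2i (SE 0.31, limma adjusted p = 0.00406), from 16.6 ± 2.54 to 3.05 ± 1.63 FPKM (SD, n = 2), which is 5.43-fold. It was higher than in 2i by 1.79 in LIF+PD (SE 0.31, limma adjusted p = 0.00611) and by 1.94 in CH+LIF (SE 0.31, limma adjusted p = 0.0055). Between the conditions with LIF the differences were -0.38 for LIF+PD (SE 0.31, limma adjusted p = 0.409) and -0.23 for CH+LIF (SE 0.31, limma adjusted p = 0.627) against 2i+LIF. The 3 calls held without any 1 culture and were lost only with no filter on low values (adjusted p 0.0647 to 0.0768). Summed FPKM over 8 primitive endoderm markers was also lowest in 2i, at 6.32 to 8.10, against 14.5 to 24.4 in the cultures with LIF. Most of it was Lama1, at a mean of 4.98 FPKM in 2i and 14.3 to 19.7 in the other conditions. The other 7 were at most 1.93 (Gata4 and Dab2), 0.951 (Sox7), 0.703 (Foxa2), 0.227 (Gata6), 0.205 (Sox17) and 0.187 FPKM (Pdgfra) in any culture. Not all were lowest in 2i: mean Foxa2 was highest there (0.647 FPKM), and mean Dab2 was higher there (0.350) than in 2i+LIF (0.262). The part of such cells in the level of Krt8 was not tested. A processed pseudogene of Krt8 is annotated elsewhere in the genome. The methods describe keeping only uniquely mapped reads, while whether the FPKM values rest on these is not given in the sources used here.

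Krt18 (ENSMUSG00000023043, chr15:102028216-102032026, plus strand), the usual partner of Krt8, was lowest where Krt8 was highest. Its FPKM was 0.973 and 1.23 in 2i+LIF, 1.80 and 2.63 in 2i, 3.98 and 4.28 in CH+LIF, and 4.78 and 6.38 in LIF+PD, and no 2 conditions overlapped. Krt18 rose by 1.64 in LIF+PD (SE 0.19, limma adjusted p = 0.00137), from 1.10 ± 0.181 to 5.58 ± 1.13 FPKM (SD, n = 2), and by 1.29 in CH+LIF, to 4.13 ± 0.214 FPKM (SE 0.19, limma adjusted p = 0.00429), and both calls held under every alternative in which Krt18 was tested. In 2i the difference was 0.60 (SE 0.19, limma adjusted p = 0.0696), and with a pseudocount of 0.1 it passed (0.93, adjusted p = 0.0468). Between the 2 conditions that lack an inhibitor the difference was -0.35, CH+LIF being lower (SE 0.19, limma adjusted p = 0.21). Against 2i, LIF+PD was higher by 1.04 (SE 0.19, limma adjusted p = 0.00804), lost without replicate 2 of LIF+PD (0.86). CH+LIF was higher than 2i by 0.69 (SE 0.19, limma adjusted p = 0.0396). That call was lost without replicate 1 of 2i (0.50), either culture of CH+LIF or either culture of 2i+LIF. Both calls were also lost with no filter on low values.

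The genes of this pair lie side by side on chromosome 15, on opposite strands, with start sites 23874 bases apart, and their proportions varied between conditions. The ratio of Krt8 to Krt18 FPKM was 15.2 and 14.9 in 2i+LIF, 2.85 and 3.99 in CH+LIF, 2.28 and 2.23 in LIF+PD, and 1.06 and 1.60 in 2i. No 2 conditions overlapped, with the 2i+LIF cultures far above the rest. The Krt18 values in 2i+LIF, 0.973 and 1.23 FPKM, had deposited bounds of 0.444 to 1.46 and 0.636 to 1.79. The size of the ratio there is therefore imprecise. The ratio describes these cultures and was not tested.

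**Figure D2:**
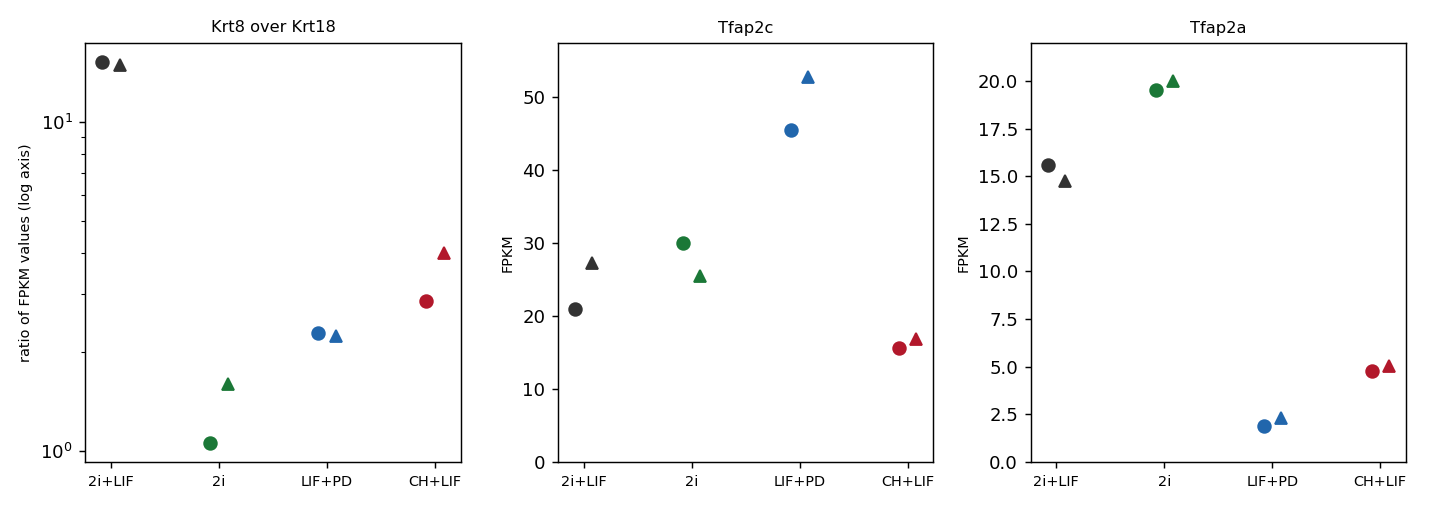
Left, ratio of Krt8 to Krt18 FPKM in each culture on a log axis; middle and right, FPKM of Tfap2c and Tfap2a on linear axes from 0 (circles replicate 1, triangles replicate 2). The ratio is near 15 in 2i+LIF and at most 3.99 elsewhere, and in LIF+PD Tfap2c is at its highest while Tfap2a is at its lowest.

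Krt19 (ENSMUSG00000020911, chr11:100140810-100148665, minus strand), a type I keratin without a fixed partner, had an FPKM of 2.91 and 3.86 in LIF+PD, 2.00 and 1.98 in CH+LIF, 1.45 and 1.63 in 2i, and 2.47 and 0.662 in 2i+LIF. LIF+PD was above all other cultures, and the wide replicates of 2i+LIF enclosed those of 2i and CH+LIF. No comparison passed: the difference between LIF+PD and 2i+LIF was 0.86 (SE 0.32, limma adjusted p = 0.0947), and it passed without replicate 1 of 2i+LIF (1.39, adjusted p = 0.0122). Krt7 (ENSMUSG00000023039, chr15:101411043-101430313, plus strand) was at 1.04 and 0.681 FPKM in LIF+PD, 0.0531 and 0.542 in 2i, 0.0795 and 0.0967 in 2i+LIF, and 0.0227 and 0.0449 in CH+LIF. LIF+PD was the only condition in which either culture of Krt7 reached an FPKM of 1.

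The number of genes called differed between the comparisons. Without LIF, 1 of the 7 tested genes passed (Krt8, lower), against 18.6% of all genes tested (9.77% higher and 8.86% lower). Without CH (LIF+PD against 2i+LIF), 4 passed against 25.2% of all genes (14.8% higher and 10.4% lower), Tfap2c, Gata3 and Krt18 being higher and Cdx2 lower. Without PD (CH+LIF against 2i+LIF), 4 passed against 25.4% of all genes (12.2% higher and 13.3% lower), Krt18 being higher and Cdx2, Tfap2c and Gata2 lower. The median log2 difference of the 7 was 0.20, 0.86 and -0.53 in these comparisons, and that of all genes 0.04, 0.03 and 0.01. The share of the 7 that passed was below the share of all genes in 1 comparison and above it in the others, on counts too small to read more from.

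Comparisons between the conditions that lack 1 component added calls. Between LIF+PD and 2i, 5 of 7 passed against 25.1% of all genes (14% higher and 11.1% lower), with Tfap2c, Gata3, Krt8 and Krt18 higher and Cdx2 lower in LIF+PD. Between CH+LIF and 2i, 6 of 7 passed against 23.9% of all genes (10.6% higher and 13.3% lower), with Krt8 and Krt18 higher and Cdx2, Tfap2c, Gata2 and Gata3 lower in CH+LIF. Between CH+LIF and LIF+PD, 4 of 7 passed against 30.4% of all genes (12.6% higher and 17.8% lower), with Cdx2 higher and Tfap2c, Gata2 and Gata3 lower in CH+LIF. These comparisons use the same cultures as the previous ones. Over the 6 comparisons, Cdx2 and Tfap2c passed in 5, Gata3 and Krt18 in 4, Gata2 and Krt8 in 3, and Krt19 in 0.

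**Figure D3:**
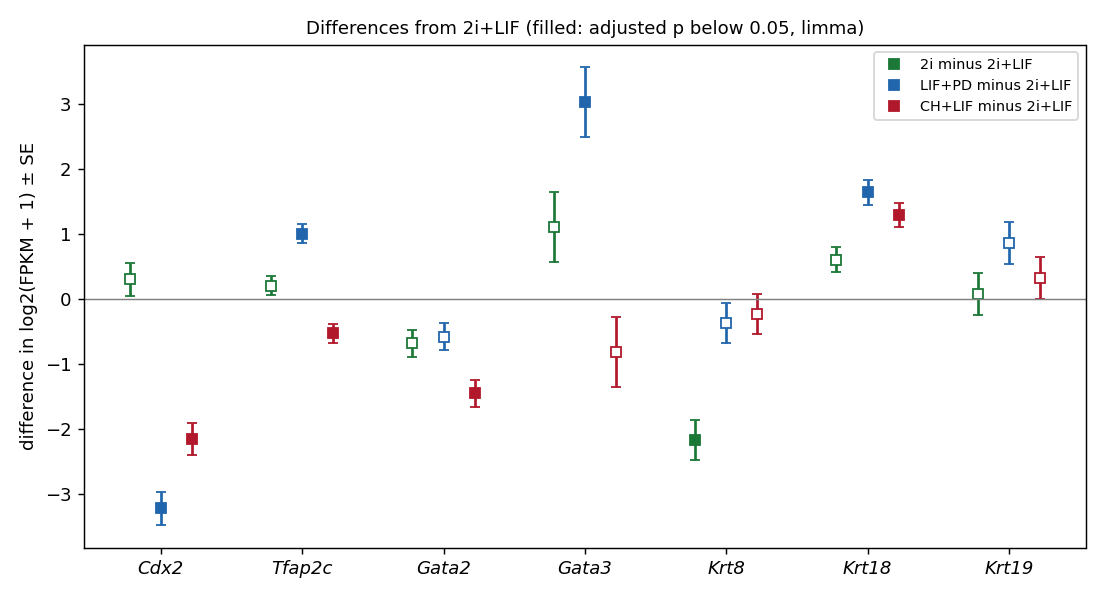
Difference from 2i+LIF in log2(FPKM + 1), with its SE (bars), for the 7 tested genes in 2i (green), LIF+PD (blue) and CH+LIF (red), filled where the limma adjusted p was below 0.05. Cdx2 lies below 0 in LIF+PD and CH+LIF, Krt18 above 0 in both, and Krt8 below 0 in 2i at -2.17.

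The order of the mean levels, from high to low, differed between the genes. Conditions are called not separated here where their comparison did not pass, whether or not their cultures overlapped. For Cdx2 it was 2i, 2i+LIF, CH+LIF and LIF+PD, and the first 2 were not separated, though their cultures did not overlap. For Tfap2c it was LIF+PD, 2i, 2i+LIF and CH+LIF, with 2i and 2i+LIF not separated. Gata3 had the same order as Tfap2c, with 2i+LIF not separated from either neighbour. For Gata2 the order was 2i+LIF, LIF+PD, 2i and CH+LIF, and the call separated CH+LIF from the other three. For Krt8, 2i+LIF, CH+LIF and LIF+PD were not separated and 2i was below them. For Krt18 the order was LIF+PD, CH+LIF, 2i and 2i+LIF, with the first 2 and the last 2 not separated.

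Among the 47 keratins other than the 4 of simple epithelia, Krt42 had the highest mean FPKM over the 8 cultures, and it was below Krt8 in both CH+LIF cultures and in replicate 2 of 2i. Of 51 keratin genes, 9 reached an FPKM of 1 in some culture and 25 were at 0 in all. The summed FPKM of the 51 was 41.6 and 43.3 in 2i+LIF, 12.8 and 13.0 in 2i, 29.9 and 36.6 in CH+LIF, and 99.8 and 95.8 in LIF+PD. Krt42, a type I keratin, held 69.7% and 64.5% of this sum in LIF+PD, where its FPKM was 69.6 and 61.8, against 20.4 and 18.6 in 2i+LIF, 7.35 and 8.42 in CH+LIF, and 5.09 and 2.37 in 2i. It rose against 2i+LIF in LIF+PD (1.70, limma adjusted p = 0.00377) and fell in 2i (-2.18, limma adjusted p = 0.00185) and in CH+LIF (-1.21, limma adjusted p = 0.0148). Krt17, at 5.63 and 5.07 FPKM in LIF+PD and 0.797 and 1.57 in 2i+LIF, rose in LIF+PD (1.56, limma adjusted p = 0.00222) and fell in 2i (-0.76, limma adjusted p = 0.042). Of the 3 keratins tested beside Krt8, Krt18 and Krt19 (Krt42, Krt17 and Krt13), 2 passed in 2i, 2 in LIF+PD and 1 in CH+LIF, against 18.6%, 25.2% and 25.4% of all genes. The surface ectoderm markers Krt5, Krt14, Krt15 and Trp63 summed to at most 0.314 FPKM in any culture, with Krt14 at 0 in all.

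**Figure D4:**
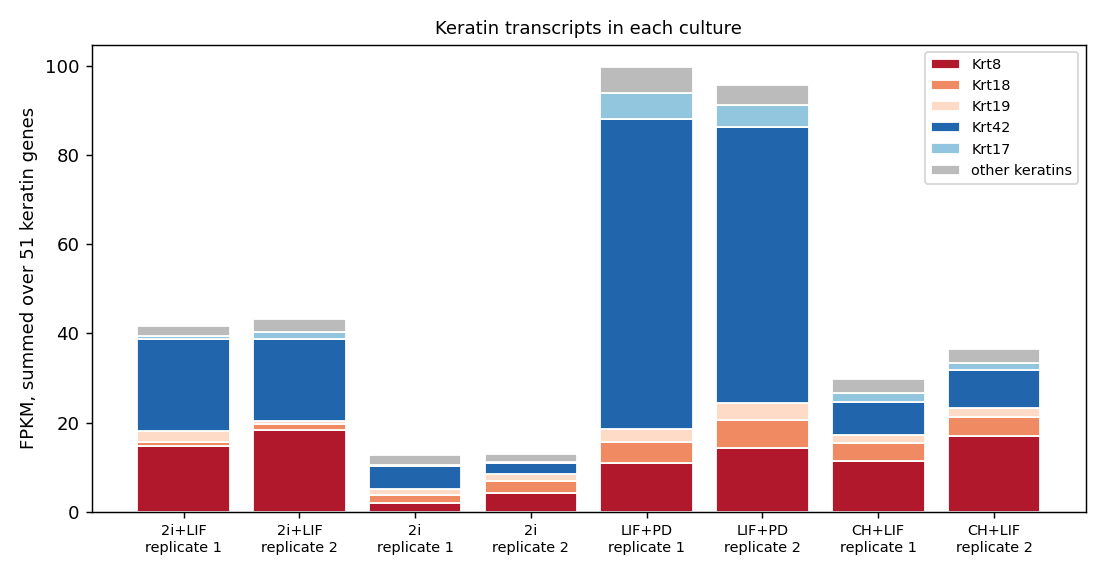
FPKM (vertical axis, linear from 0) summed over 51 keratin genes in each culture, stacked by gene as given in the legend. The sum is largest in the 2 LIF+PD cultures, 99.8 and 95.8, mostly Krt42, and smallest in 2i, 12.8 and 13.0.

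The other trophoblast transcription factors were counted from a list of 25, of which 23 were tested. Against 2i+LIF, 4 rose and 8 fell in 2i, 5 rose and 5 fell in LIF+PD, and 3 rose and 4 fell in CH+LIF, with medians of -0.05, 0.00 and -0.05 on the log2 scale. Of all genes tested, 18.6%, 25.2% and 25.4% passed in these comparisons, with medians of 0.04, 0.03 and 0.01. The most abundant of them were Sall4, Esrrb, Klf5, Nr0b1, Yap1 and Cited2, several of which are also factors of pluripotent cells. Klf5 had a mean FPKM of 167 in 2i+LIF, 164 in LIF+PD, 68.5 in 2i and 251 in CH+LIF, falling in 2i (-1.28, limma adjusted p = 0.000703) and rising in CH+LIF (0.58, limma adjusted p = 0.0131). Sall4 rose in LIF+PD (0.55, limma adjusted p = 0.0044), as did Cited2 (0.48, limma adjusted p = 0.0256). Esrrb fell in 2i (-0.49, limma adjusted p = 0.0219) and LIF+PD (-0.42, limma adjusted p = 0.0297). Nr0b1 also fell in 2i (-0.65, limma adjusted p = 0.0106) and LIF+PD (-0.50, limma adjusted p = 0.0223). Yap1 passed in no comparison with 2i+LIF. Chosen after its values had been seen, Tfap2a, the close relative of Tfap2c, had an FPKM of 15.6 and 14.8 in 2i+LIF, 19.5 and 20.0 in 2i, 4.77 and 5.02 in CH+LIF, and 1.87 and 2.30 in LIF+PD. It fell by 2.39 in LIF+PD (limma adjusted p = 6.21e-05), where Tfap2c rose, and by 1.46 in CH+LIF (limma adjusted p = 0.000582). Eomes, chosen in the same way, a T-box factor of trophoblast stem cells and of mesendoderm, rose from a mean FPKM of 1.53 in 2i+LIF to 4.21 in 2i (1.00, limma adjusted p = 0.037) and 9.41 in CH+LIF (2.04, limma adjusted p = 0.00249), where Cdx2 was low, and was 1.49 in LIF+PD.

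Of 32 genes of the trophectoderm epithelium (tight and adherens junctions, polarity, the sodium pump and transporters), 28 were tested. In 2i 7 rose and 7 fell, in LIF+PD 9 rose and 7 fell, and in CH+LIF 6 rose and 9 fell, with medians of 0.06, 0.16 and 0.00 on the log2 scale, against 18.6%, 25.2% and 25.4% of all genes passing and all-gene medians of 0.04, 0.03 and 0.01. Atp1b1, a sodium pump subunit, fell in all 3 (-1.37 in 2i, -0.94 in LIF+PD and -0.77 in CH+LIF), from a mean FPKM of 136.9 in 2i+LIF to 52.3, 70.8 and 79.7. Of 18 genes of differentiated trophoblast, 10 were at 0 in all cultures and 3 were tested. Peg10, an imprinted gene of retroviral origin, rose in 2i from a mean FPKM of 17.8 to 106.6 (2.51, limma adjusted p = 0.000582), and also in LIF+PD, to 38.4 (1.054, limma adjusted p = 0.0136), and in CH+LIF, to 36.8 (0.99, limma adjusted p = 0.0172). Of the 3 tested, 3 passed in 2i, 3 in LIF+PD and 1 in CH+LIF, against the shares of all genes given above. Phlda2, an imprinted gene that restrains placental growth, fell from 62.5 to 22.5 in 2i (-1.45, limma adjusted p = 0.000474) and to 8.07 in LIF+PD (-2.81, limma adjusted p = 4.24e-05). Ascl2, a factor of the spongiotrophoblast, rose from 0.930 to 4.04 in 2i (1.29, limma adjusted p = 0.0454) and to 3.44 in LIF+PD (1.21, limma adjusted p = 0.0457).

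For each of the 7 tested genes, the 3 most similar profiles over the 8 cultures were sought by Pearson's r of log2(FPKM + 1) among 8807 genes. The cultures cluster by condition, so these values describe the profile and carry no p. The genes were Pnrc1 (0.987), Tfap2a (0.986) and Kctd6 (0.983) for Cdx2; Zfand2a (0.992), Ipmk (0.984) and Dhx16 (0.978) for Tfap2c; Nck2 (0.980), Tfcp2 (0.970) and Ppap2b (0.963) for Gata2; and Cd59a (0.985), Fbxw9 (0.984) and Fgfr1 (0.974) for Gata3. For the keratins they were Spint1 (0.977), Gjb5 (0.976) and Fam129a (0.974) for Krt8, Pla2g6 (0.979), Gm16105 (0.978) and Zc3h8 (0.978) for Krt18, and Gm10167 (0.945), Gins1 (0.933) and Pqbp1 (0.933) for Krt19. Among the members themselves, the r of Tfap2c with Gata3 was 0.867, that of Cdx2 with Krt18 was -0.894, and that of Krt8 with Krt18 was 0.155.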

How the data were processed

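RNA-seq was carried out on 8 cultures, with 2 per condition. Reads were sequenced from a single end, and the authors used tophat2 for alignment to GRCm38 (mm10, Ensembl 75), keeping unique matches, and the submitters' processing notes also name Cufflinks and Cuffdiff. The authors deposited an FPKM value for every gene in a culture, with 2 bounds whose level is not given in the sources used here and which did not always enclose the value. Replicates were not pooled. The libraries are described as polyA RNA in the labels and as rRNA-depleted in the methods, and the authors' own counts and DESeq2 test were not used here. FPKM values depend on the library total, and read depth is unknown. Relative depth was estimated from genes with low values, of whose ratios 10.1% to 22.3% gathered at 1 value. Whole reads could not be recovered.

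Entries with 1 identifier were summed (22 repeated), and genes below an FPKM of 1 in all but 1 culture or in every culture were dropped. The 12927 genes left were tested with limma 3.58.1 in R 4.3.3, two-sided, with a mean-variance trend, on log2(FPKM + 1). The pseudocount of 1 understates changes of low genes. All 8 cultures entered 1 fit (4 residual degrees of freedom) with 6 comparisons, each Benjamini-Hochberg adjusted over all genes tested at 0.05. An exact permutation test of 2 against 2 cultures cannot go below p = 0.333 and was not used. The procedure was tested on simulated data. Promoters and motif matches were read with Python 3.11.15 from RefSeq tables, and gene types from GENCODE M21.

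The genes, lists and tests were chosen with earlier results of these data known. The text names all 10 members, up to 6 genes with the highest mean FPKM of each list, and the 3 genes most like each tested member (mean FPKM of at least 5); other genes are said to have been chosen after their values were seen. The lists were trophoblast transcription factors, trophectoderm epithelium, differentiated trophoblast, keratins and cell type markers. The 16 alternatives were pseudocounts of 0.1 and 5, no filter, a mean FPKM of at least 5, scaling to the same sum (TPM) or by size factors, no trend, the replicate number as a block, and leaving out each culture.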

Additional observations from a re-analysis of the deposited data

How the results depend on the processing

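Of 654 values of the 42 differences under the alternatives, 581 kept direction and side of the threshold, 59 lost the call, 9 gained one and 5 reversed. Of the 24 calls, 10 held under every alternative in which the gene was tested, and 14 were lost under at least 1. No filter was among the losses of each of the 14. It was the only loss for the calls of Krt8 and for that of Gata3 in LIF+PD against 2i+LIF. The order of comparisons here is 2i, LIF+PD and CH+LIF against 2i+LIF, LIF+PD and CH+LIF against 2i, and CH+LIF against LIF+PD. With no filter on low values, where more genes are tested, all-gene calls were 1058, 1772, 1425, 1904, 1436 and 2331 against 2408, 3263, 3286, 3242, 3089 and 3928. Among the members, 0 passed for 2i against 2i+LIF with no filter (limma), and 2 with a pseudocount of 0.1, without the trend or with the replicate block. For LIF+PD against 2i, 1 passed with no filter and 3 with a mean FPKM of at least 5, where fewer members are tested. For CH+LIF against 2i 1 passed, and against LIF+PD 2, with no filter, and for CH+LIF against 2i+LIF 2 passed with a mean FPKM of at least 5. Leaving out each culture in turn, a lone culture being assumed to vary like the others, gave 1152 to 2150, 1661 to 3372, 1506 to 3363, 1873 to 2987, 1478 to 2726 and 2262 to 4026 all-gene calls and 1 to 2, 4 to 6, 3 to 4, 2 to 6, 2 to 5 and 2 to 4 members. Without replicate 2 of 2i+LIF, Krt19 reversed in 2i (-0.45, range to 0.61) and CH+LIF (-0.21, range to 0.85) against it. Krt8 reversed in CH+LIF against 2i+LIF (0.049, range from -0.50) without replicate 1 of CH+LIF, and against LIF+PD without replicate 2 of CH+LIF (-0.13, range to 0.43) or replicate 1 of LIF+PD (-0.03). None of these had passed, and the cause was not tested. Replicate numbers did not pair the cultures (correlation of deviations -0.03 to 0.09), and with the replicate block 2547, 3470, 3519, 3467, 3338 and 4105 genes passed. Among the members the block ended the call of Gata3 in CH+LIF against 2i (adjusted p = 0.0504) and added Krt18 in 2i against 2i+LIF (adjusted p = 0.034), and it changed no other call. Scaling to the same sum moved the median of all genes from 0.01 to 0.18 for CH+LIF and from 0.03 to 0.15 for LIF+PD against 2i+LIF on the log2 scale. It moved the share of higher calls from 47.9% to 74.1% and from 58.6% to 74.9%, and for CH+LIF against 2i from 44.5% to 64.0%. Depth per culture is unknown, so no counting error is given, and Elf5, Hand1 and Krt7 were too low for the test.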
